A study of Mus musculus with 30 samples.

Results

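The comparison described here is that between control retinal ganglion cells 4 days and 3 days after optic nerve crush, over all genes counted. Its members were fixed by their labels: the 3 libraries of the NT 4dpc group against the 3 libraries of the NT 3dpc group, 6 of the 30 libraries in the series (dpc stands for days post crush). The mice behind all 30 libraries were LSL-Cas9-GFP; Vglut2-Cre animals, where Vglut2-Cre switches on Cas9 and GFP in neurons that make the vesicular glutamate transporter. In the NT groups the eye received an AAV2 vector with non-targeting sgRNAs, and in the SSRP1KO groups an AAV2 vector with sgRNAs against Ssrp1. The crush followed 2 weeks after the vector, and the other groups were NT and SSRP1KO cells without crush and at 1 and 2 days. The NT control cells thus also came from Cas9 mice and vector-injected eyes. The labels give no age or sex of the mice, and leave unsaid whether libraries of 1 group are from different animals; the p-values therefore reflect library-to-library spread, some of which could be technical. Live cells were sorted on CD90.2, GFP, the mCherry that travels with the sgRNAs, or a combination, so the gate did not require the vector in every cell. Of 24033 gene symbols, 16621 had enough counts to be tested.

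Retinal ganglion cells are the neurons that send the retina's output to the brain through the optic nerve, and crush cuts their axons inside the nerve. Injured ganglion cells are known to switch on stress kinases and the integrated stress response, in which the transcription factors ATF4 and CHOP raise genes of amino acid synthesis and death, while genes of mature neuronal function fall and a limited set of growth genes rises. Interferons act on most cell types through factors that bind a short promoter element and switch on antiviral and antigen presentation genes. Days 3 and 4 come before most ganglion cells are lost in this injury.

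The 6 libraries held 10888302, 29053539 and 22603863 gene counts in NT 4dpc replicates 1, 2 and 3, and 25920612, 25568247 and 26119062 in NT 3dpc replicates 1, 2 and 3. NT 4dpc replicate 1 was the shallowest of the 6. Malat1, a nuclear RNA, had 63022, 29221 and 33174 CPM (counts scaled to a common library size) at NT 4dpc, against 16655, 14146.5 and 16625 CPM at NT 3dpc, without overlap. Xist, made from the inactive X of female cells, was 3023, 4353 and 3352 CPM at NT 4dpc and 892, 5.66 and 835 CPM at NT 3dpc, while Y-linked genes summed to 74.9, 0 and 76.6 CPM at NT 4dpc and 176, 228 and 159.7 CPM at NT 3dpc. Replicates 1 and 3 of both groups had Xist and Y-linked RNA together, so each of these libraries held RNA of both sexes. The mix of sexes in the libraries therefore differed between the groups. Its part in the results was not tested beyond a fit with a sex score, given with the other alternatives. Of 24 ganglion cell identity markers, Atoh7, a gene of progenitors, was at 0 in all 6 libraries; Rbpms stood at 169, 203 and 203 CPM at NT 4dpc and 230, 242 and 241 CPM at NT 3dpc. Ssrp1, the gene targeted in the other arm, had 50.6, 97.9 and 92.2 CPM at NT 4dpc and 80.5, 102 and 89.6 CPM at NT 3dpc, beside 48.0, 44.1 and 41.7 CPM at SSRP1KO 4dpc. The library labelled NT 4dpc replicate 1 thus lay near the SSRP1KO 4dpc libraries in Ssrp1 and apart from the other NT 4dpc libraries. NT 2dpc replicate 3 was likewise low in Ssrp1, with 325 of 9715972 gene counts. Replicates 1 and 2 of its group had 1822 of 23210989 and 2217 of 24127751. That shallow library also had 58447 CPM of Malat1. The reason for the low Ssrp1 was not tested. NT 4dpc replicate 1 is called by its label here, and values without it are given where it decides a result. The summed identity markers were 15300, 9769 and 9445 CPM at NT 4dpc and 10570, 10970 and 10410 CPM at NT 3dpc. Replicate 1 of NT 4dpc thus lay above all NT 3dpc libraries, and replicates 2 and 3 lay below them. At SSRP1KO 4dpc the sums were 6827, 7122 and 7386 CPM, below all 6 of these libraries.

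Few genes changed between day 3 and day 4. Of the 16621 genes tested, 18 passed (0.108%), 10 higher (0.0602%) and 8 lower (0.0481%) at NT 4dpc, at an adjusted p under 0.05 in edgeR's quasi-likelihood test with Benjamini-Hochberg adjustment over all genes, which gives every adjusted p below unless another fit is named. Without adjustment 1735 genes (10.4%) had a p under 0.05, 1058 higher (6.37%) and 677 lower (4.07%). The preceding day steps moved more genes: 1019 of 16621 (6.13%) between NT 3dpc and NT 2dpc, and 1080 (6.5%) between NT 2dpc and NT 1dpc. These counts depend on the spread of each group and on the fit, and were not tested against each other. With only the 6 libraries of each step, the preceding steps had 389 and 547 genes, beside 96 for day 4 against day 3. With the replicate block in those 6 libraries the counts were 80 and 284, beside 66. The number of genes passing for day 4 against day 3 moved widely with the fit, to 96 (0.662%) with only the 6 libraries and to 252 (1.52%) with DESeq2. It was 2 without NT 4dpc replicate 1, 24 without replicate 2, 22 without replicate 3, 4 without NT 3dpc replicate 1, 2 without NT 3dpc replicate 2 and 4 without NT 3dpc replicate 3. Nptx1 and Chl1 passed in each of these 6 fits, but Chl1 did not with only the 6 libraries (adjusted p = 0.0605), with the replicate block in them (0.0789) or with only the 15 NT libraries (0.0511). The calls were not the same genes throughout: of the 18, 8 of the 17 that could be tested passed with only the 6 libraries, 2 of 18 with only the 15 NT libraries and 3 of 18 with the sex score. Those 3 were Chl1, Nptx1 and Mx2.

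**Figure D1:**
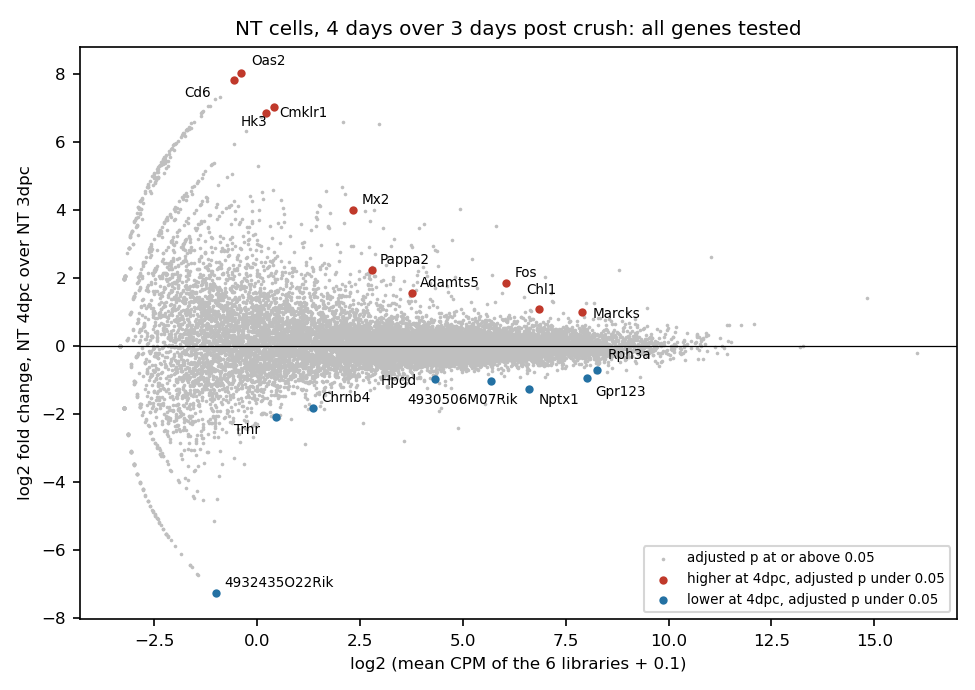
Log2 fold change of NT 4dpc over NT 3dpc (y axis) against the log2 of the mean CPM of the 6 libraries with 0.1 added (x axis) for the 16621 genes tested. The 10 genes higher and 8 genes lower at an adjusted p under 0.05 are coloured and named; most other genes lie near 0, with the widest scatter among low counts.

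Among the increases were genes of the neuronal surface and growing axon. Chl1, a cell adhesion molecule of the L1 family that acts in axon growth and guidance, had 219, 136 and 117 CPM in the NT 4dpc libraries, against 73.3, 76.4 and 70.8 CPM in the NT 3dpc libraries. The lowest day 4 library lay well above the highest day 3 library, and Chl1 rose by 1.10 ± 0.17 on the log2 scale (SE, edgeR adjusted p = 0.00288, n = 3 libraries each). Until then its level had drifted down, with means of 107 ± 13.7 CPM without crush, 96.6 ± 9.86 at NT 1dpc, 93.0 ± 3.08 at NT 2dpc, 73.5 ± 2.81 at NT 3dpc and 157.5 ± 54.2 at NT 4dpc (SD, n = 3 each). In GRCm38 the annotation places Chl1 on the plus strand of chromosome 6 (start 103510586, end 103750211) with 32 exon blocks. Marcks, a membrane-bound substrate of protein kinase C that binds actin in growth cones, had 461, 252 and 236 CPM at NT 4dpc, against 172, 156 and 147 CPM at NT 3dpc. It rose by 1.00 ± 0.18 (edgeR adjusted p = 0.0263), and the day 4 mean was 316 ± 125 CPM, beside 430.0 ± 6.62 CPM in uncrushed NT cells (SD, n = 3 each; edgeR adjusted p = 0.0638 for that difference). In both genes NT 4dpc replicate 1 was the highest library. Without it the log2 change was 0.78 for Chl1 (edgeR adjusted p = 0.0475) and 0.62 for Marcks (edgeR adjusted p = 0.165).

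Proteases and an immediate early gene also rose. Pappa2, a secreted protease that frees insulin-like growth factors from their binding proteins, had 13.7, 8.81 and 11.1 CPM at NT 4dpc, against 3.503, 1.58 and 2.06 CPM at NT 3dpc. Its step was 2.23 ± 0.40 on the log2 scale (edgeR adjusted p = 0.0263), after group means between 2.19 and 3.80 CPM at the 4 earlier NT times. Adamts5, a matrix protease that cuts aggrecan and versican, had 29.5, 12.6 and 18.0 CPM at NT 4dpc, against 5.76, 5.42 and 9.03 CPM at NT 3dpc. It rose by 1.56 ± 0.31 (edgeR adjusted p = 0.0372) to a mean of 20.1 ± 8.62 CPM, beside 23.1 ± 1.63 CPM in uncrushed NT cells (SD, n = 3 each). Fos, the AP-1 subunit induced by activity and stress, had 200.4, 57.7 and 54.7 CPM at NT 4dpc, against 38.2, 22.4 and 26.2 CPM at NT 3dpc. The groups did not overlap and the log2 change was 1.84 ± 0.36 (edgeR adjusted p = 0.0372), but it was 0.96 without NT 4dpc replicate 1 (edgeR adjusted p = 0.272). Pappa2 and Adamts5 likewise lost their call without NT 4dpc replicate 1, at log2 changes of 2.06 and 1.18 (edgeR adjusted p = 0.115 and 0.190). Marcks, Fos and Adamts5 also lost it without any one of the NT 3dpc libraries, and Pappa2 without NT 3dpc replicate 2 or 3. With the sex score as a covariate none of these 4 genes passed (edgeR adjusted p = 0.055 for Pappa2, Fos and Marcks and 0.0567 for Adamts5).

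Among the decreases, the smallest p was that of a synaptic gene. Nptx1, neuronal pentraxin 1, which is secreted and gathers AMPA receptors at synapses, had 35.2, 64.0 and 70.8 CPM at NT 4dpc, against 131, 140.3 and 139.9 CPM at NT 3dpc. All 3 day 4 libraries lay far below day 3, and Nptx1 fell by 1.27 ± 0.19 on the log2 scale (edgeR adjusted p = 0.00288). Of the 18 genes it was the one that passed in all 15 alternative fits, with log2 changes from -1.46 to -1.02. Its fall had been under way before: the means were 367 ± 47.2 CPM without crush, 326 ± 27.6 at NT 1dpc, 250.5 ± 26.2 at NT 2dpc, 137 ± 5.43 at NT 3dpc and 56.7 ± 18.9 at NT 4dpc (SD, n = 3 each). In GRCm38 Nptx1 is on the minus strand of chromosome 11 (start 119538719, end 119547753), with 5 exon blocks.

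Rph3a, rabphilin 3A, an effector of Rab3 on synaptic vesicles, had 213, 248 and 237 CPM at NT 4dpc, against 337, 408 and 389 CPM at NT 3dpc. It fell by 0.70 ± 0.14 on the log2 scale (edgeR adjusted p = 0.0448), the last part of a descent from 1135 ± 175 CPM without crush (SD, n = 3). Hpgd, the enzyme that inactivates prostaglandins, had 15.1, 14.3 and 11.0 CPM at NT 4dpc, against 27.4, 28.6 and 22.6 CPM at NT 3dpc. It fell by 0.96 ± 0.18 (edgeR adjusted p = 0.0263). Gpr123, an adhesion G protein-coupled receptor named Adgra1 in the annotation, had 139, 197 and 195 CPM at NT 4dpc, against 318, 357 and 339 CPM at NT 3dpc. It fell by 0.93 ± 0.18 (edgeR adjusted p = 0.0372) from a day 3 level that was the highest group mean of the NT time course, 338 ± 19.4 CPM, with means of 242 to 285 CPM at the 3 earlier times. Rph3a lost its call without any one of the 6 libraries, Gpr123 without NT 4dpc replicate 1 or any NT 3dpc library, and Hpgd without NT 4dpc replicate 1 or 3 or NT 3dpc replicate 1 or 2. With the sex score none of the 3 passed (edgeR adjusted p = 0.11 for Rph3a, 0.068 for Gpr123 and 0.055 for Hpgd).

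**Figure D2:**
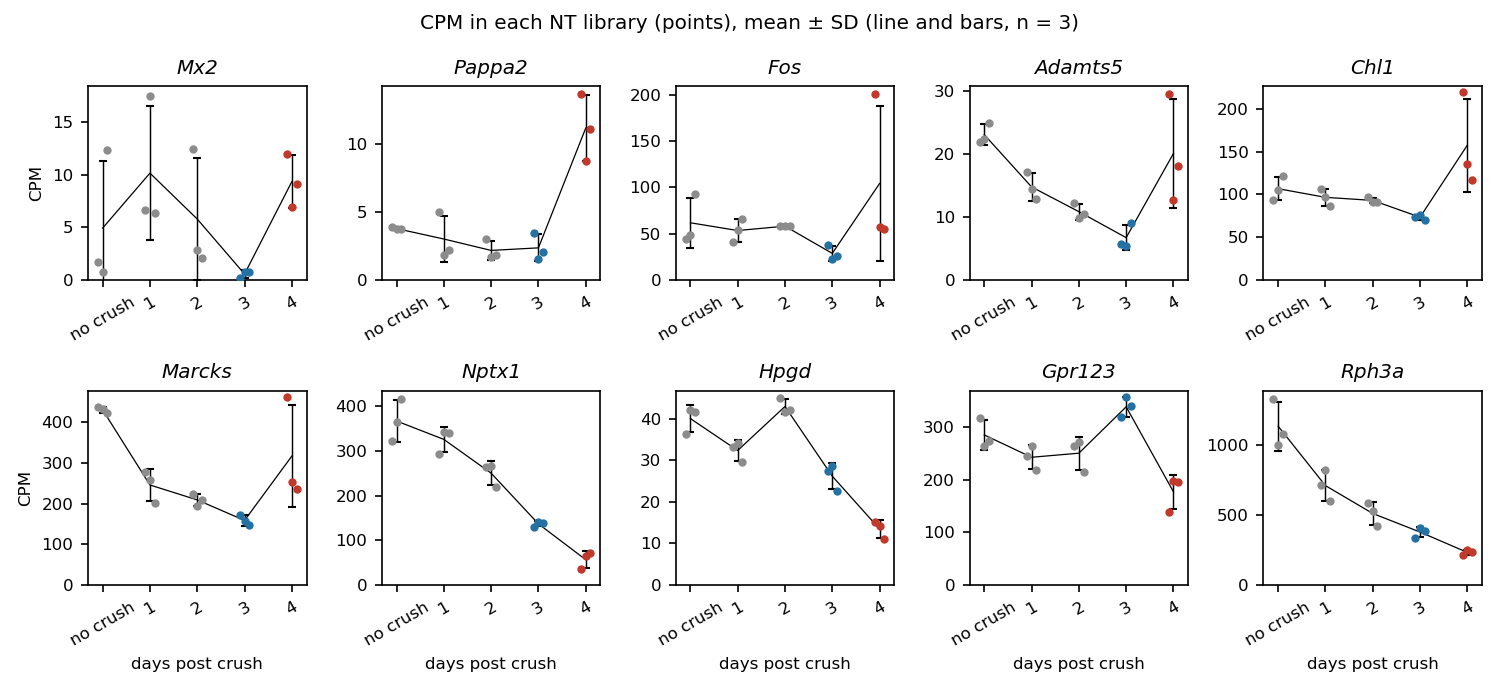
CPM (y axis, from 0) of the 10 genes taken by the naming rule in each of the 15 NT libraries, from no crush to 4 days post crush (x axis); points are libraries, red at 4 days and blue at 3 days, and the line with bars is the mean ± SD of 3. Nptx1 and Rph3a fall at each time, and Marcks and Adamts5 turn upward at day 4. Replicate 1 is the highest day 4 library of Mx2, Pappa2, Fos, Adamts5, Chl1 and Marcks, all of them increases. Among the decreases it is the lowest of Nptx1, Gpr123 and Rph3a and the highest of Hpgd.

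Another 4 decreases fell outside the naming rule and were added after their values were seen. Trhr, the receptor for thyrotropin-releasing hormone and a marker of a class of direction-selective ganglion cells, had 0.428, 0.624 and 0.355 CPM at NT 4dpc, against 1.60, 1.66 and 2.96 CPM at NT 3dpc. It fell by 2.10 ± 0.41 on the log2 scale (edgeR adjusted p = 0.0372), with 30 counts over the group at NT 4dpc and 158 at NT 3dpc, after 20.1 ± 1.75 CPM without crush (SD, n = 3). Chrnb4, a nicotinic acetylcholine receptor subunit, had 0.642, 1.18 and 1.33 CPM at NT 4dpc, against 3.19, 4.24 and 4.09 CPM at NT 3dpc, a log2 change of -1.82 ± 0.38 (edgeR adjusted p = 0.0463). The symbol 4930506M07Rik is Shtn1 in the annotation, which encodes shootin 1, a protein that links actin flow to adhesion in growing axons. It had 19.7, 36.7 and 43.7 CPM at NT 4dpc, against 66.8, 76.5 and 62.8 CPM at NT 3dpc, and fell by 1.03 ± 0.21 (edgeR adjusted p = 0.0420). The long non-coding RNA 4932435O22Rik had 0 counts in every NT 4dpc library and 3, 13 and 45 in NT 3dpc replicates 1, 2 and 3, so most came from a single library (edgeR adjusted p = 0.0448). For each of these 4 genes, leaving out a single library ended the call for at least 5 of the 6 libraries. None passed with the sex score (edgeR adjusted p from 0.055 to 0.128).

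The interferon-stimulated genes stood higher at day 4 nearly throughout. All 30 listed genes were tested, and in 28 (93.3%) every NT 4dpc library was above every NT 3dpc library, against 8.97% of all genes tested; the median log2 change was 2.36 for the list and 0.02 for all genes. Only 1 member passed the test, Mx2, a gene of the interferon-induced GTPase family that the annotation types as a polymorphic pseudogene. It had 11.98, 6.90 and 9.13 CPM at NT 4dpc, against 0.195, 0.728 and 0.818 CPM at NT 3dpc, and rose by 3.99 ± 0.80 on the log2 scale (edgeR adjusted p = 0.0420), a call lost without NT 4dpc replicate 1 or any NT 3dpc library. In the fit with only the 6 libraries 22 of 29 members were called higher, where 0.614% of the genes it tested were, and DESeq2 called 12 of 30 higher, where 1.07% were.

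A transcription factor of the pathway was among the members without overlap. Irf7, which amplifies type I interferon, had 5.24, 5.31 and 4.30 CPM at NT 4dpc, against 0.389, 0.162 and 0.389 CPM at NT 3dpc, a log2 difference of 3.95 ± 1.10 (edgeR adjusted p = 0.124). Each day 4 library exceeded each day 3 library, though the gene did not pass the adjusted test.

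Effectors and antigen presentation genes showed the same separation. Ifit1, which binds viral RNA, had 74.0, 42.9 and 54.5 CPM at NT 4dpc, against 4.13, 2.83 and 3.54 CPM at NT 3dpc (log2 difference 4.02 ± 1.10, edgeR adjusted p = 0.117). Ifit3, its partner, had 33.2, 32.7 and 37.3 CPM at NT 4dpc, against 4.09, 3.84 and 5.41 CPM at NT 3dpc (2.95 ± 0.80, edgeR adjusted p = 0.117). Oasl2, of the oligoadenylate synthetase family, had 114, 99.3 and 97.5 CPM at NT 4dpc, against 7.90, 9.22 and 9.81 CPM at NT 3dpc (3.53 ± 0.96, edgeR adjusted p = 0.117). No NT 3dpc library of these 3 genes came near an NT 4dpc library. B2m, the light chain of MHC class I, had 984, 562 and 667 CPM at NT 4dpc, against 176, 157 and 139 CPM at NT 3dpc (2.23 ± 0.64, edgeR adjusted p = 0.141). In Mx1 and Psmb9 the groups overlapped. The counting of reads shared by close copies, such as H2-K1 and H2-D1 or Mx1 and Mx2, is not given in the sources used here, so the values of such pairs are less certain.

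**Figure D3:**
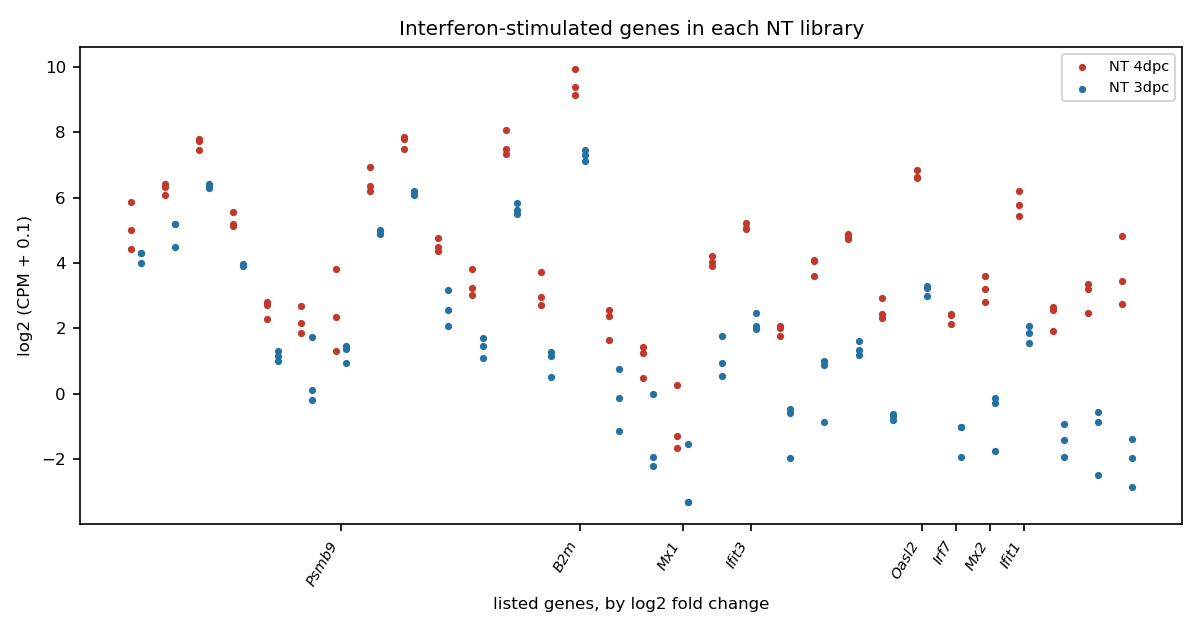
Log2 of CPM with 0.1 added (y axis) for the 30 interferon-stimulated genes (x axis, ordered by log2 fold change, 8 of them labelled) in the 3 NT 4dpc libraries (red, left) and the 3 NT 3dpc libraries (blue, right). Red points lie above all blue points in 28 of the 30 genes.

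Among the NT libraries, those of day 3 held the lowest sums of these genes. The summed CPM of the interferon-stimulated genes was 552, 660.4 and 5732 in the NT libraries without crush, 6408, 5113 and 3789 at NT 1dpc, 6942, 2609 and 584 at NT 2dpc, 535, 482 and 483 at NT 3dpc, and 2435, 1671 and 1826 at NT 4dpc. Replicate 3 without crush stood far above the other two libraries of its group, and the NT 2dpc libraries spread from 584 to 6942 CPM. This spread enters the fit over all 30 libraries. The day 4 sums lay within the range of the earlier NT libraries. The median log2 change of the list between NT 3dpc and NT 2dpc was -3.61. Against uncrushed NT cells, Mx2 stood lower at NT 3dpc, by a log2 change of -3.08 ± 0.77 (edgeR adjusted p = 0.0034). At NT 4dpc its log2 difference from uncrushed NT cells was 0.91 ± 0.69 and did not pass (edgeR adjusted p = 0.371). In SSRP1KO cells the sums were 914, 1364 and 1195 CPM at 4dpc and 968, 1377 and 1019 CPM at 3dpc, overlapping, and the median log2 change was 0.24.

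Promoters of 3 of these genes are shown because they carry a match to the element through which the pathway acts. The interferon-stimulated response element was searched as GAAA, any 2 bases and GAAA again, on both strands, in the 300 bases around each start site (250 before to 50 after) from RefSeq on GRCm38.p6. Of the 30 members, 24 had a promoter in the table, and 12 of those (50%) held it, against 3.44% of all 32851 promoters and 3.99% of all 27025 genes. A match is a description of the letters only. Matches are in capitals; in Ifit1 and Ifit3 they are on the opposite strand and read as the reverse complement. B2m (chr2:122147437-122147736, plus strand) has 1 match that begins 139 bases before the start site, Ifit1 (chr19:34640639-34640938, plus strand) has matches beginning 104 and 85 bases before it, and Ifit3 (chr19:34583279-34583578, plus strand) has matches beginning 156 and 122 bases before it.
B2m: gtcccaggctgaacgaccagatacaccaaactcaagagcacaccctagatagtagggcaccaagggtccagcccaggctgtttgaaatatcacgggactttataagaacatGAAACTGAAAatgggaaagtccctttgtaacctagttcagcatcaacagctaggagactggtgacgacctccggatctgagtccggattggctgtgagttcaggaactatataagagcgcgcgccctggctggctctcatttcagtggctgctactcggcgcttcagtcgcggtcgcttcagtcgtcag
Ifit1: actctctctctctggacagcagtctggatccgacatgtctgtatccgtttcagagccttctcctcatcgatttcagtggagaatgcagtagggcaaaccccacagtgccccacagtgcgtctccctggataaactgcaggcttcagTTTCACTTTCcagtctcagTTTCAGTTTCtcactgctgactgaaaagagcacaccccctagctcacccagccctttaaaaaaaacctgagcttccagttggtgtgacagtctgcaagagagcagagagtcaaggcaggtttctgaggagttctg
Ifit3: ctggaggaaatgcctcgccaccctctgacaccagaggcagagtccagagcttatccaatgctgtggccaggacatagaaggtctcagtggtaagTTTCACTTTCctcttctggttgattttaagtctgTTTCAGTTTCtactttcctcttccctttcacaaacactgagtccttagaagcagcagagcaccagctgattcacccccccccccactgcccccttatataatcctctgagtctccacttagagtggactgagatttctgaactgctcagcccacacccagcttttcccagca

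Genes of immune cells also stood higher at day 4. Of 21 microglia and macrophage markers, 13 (61.9%) were higher in every NT 4dpc library than in any NT 3dpc library, against 8.97% of all genes, and 0 were lower, against 9.01%, with a median log2 change of 1.82 and 0 called. Their summed level was 395, 522 and 755 CPM at NT 4dpc and 291, 256 and 236 CPM at NT 3dpc. Earlier NT sums were 327, 206.5 and 209 CPM without crush, 1750, 274 and 428 CPM at 1dpc, and 712, 610 and 125.5 CPM at 2dpc. The day 4 sums thus lay within the range of the earlier NT libraries. None of the list was at 0 in all libraries of NT 4dpc or NT 3dpc. Csf1r, the receptor that microglia need to survive, had 13.5, 22.2 and 35.4 CPM at NT 4dpc, against 6.11, 3.76 and 6.93 CPM at NT 3dpc (log2 difference 2.09 ± 0.57, edgeR adjusted p = 0.117). Cd74, the invariant chain of MHC class II, had 20.4, 38.0 and 85.5 CPM at NT 4dpc, against 4.48, 4.37 and 7.98 CPM at NT 3dpc (3.10 ± 0.92, edgeR adjusted p = 0.155). Within NT 4dpc both genes were lowest in replicate 1 and highest in replicate 3. Interferon-stimulated genes did not share 1 order. B2m, Ifit1, Oasl2, Mx2 and the sum of the list were highest in replicate 1, Irf7 in replicate 2 and Ifit3 in replicate 3. Oas2, also induced by interferon, had its most counts in replicate 3. The microglial markers and the interferon-stimulated genes were both higher in the NT 4dpc libraries, as any lists higher at day 4 must be. That they share these libraries therefore does not link them, and the part of immune cells in the interferon result was not tested. In sorted cells measured in bulk, more cells of a type and more RNA per cell cannot be told apart.

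The other 4 called increases were found at very low levels and belong largely to immune cells; they too fell outside the naming rule and were added after their values were seen. Cd6, a T cell surface receptor, had 8, 44 and 25 counts in NT 4dpc replicates 1, 2 and 3 and 0 in every NT 3dpc library (edgeR adjusted p = 0.0436). Oas2, an interferon-induced RNA sensor, had 5, 31 and 54 counts at NT 4dpc and 0 in every NT 3dpc library (edgeR adjusted p = 0.0448). Cmklr1, the chemerin receptor of macrophages, had 18, 53 and 59 counts at NT 4dpc and 1, 0 and 0 at NT 3dpc (edgeR adjusted p = 0.0444). Hk3, the hexokinase of myeloid cells, had 46, 29 and 31 counts at NT 4dpc and 0, 0 and 1 at NT 3dpc (edgeR adjusted p = 0.0463). These counts are not scaled to depth, and NT 4dpc replicates 1, 2 and 3 held 10888302, 29053539 and 22603863 gene counts. Hk3 thus had its most counts in the shallowest library. The NT 4dpc means were 1.16 CPM for Cd6, 1.335 for Oas2, 2.13 for Cmklr1 and 2.43 for Hk3. All 4 also had counts in every NT library without crush and at 1dpc, and in NT 2dpc replicates 1 and 2, with group means from 0.131 to 4.27 CPM. NT 2dpc replicate 3 had 0 counts for all 4, so the low values were not confined to day 3. Leaving out NT 4dpc replicate 1 or any NT 3dpc library ended each of these 4 calls, and so did leaving out NT 4dpc replicate 2 for Cd6 and replicate 3 for Oas2 and Cmklr1. With the sex score none of the 4 passed (edgeR adjusted p = 0.055 for Cd6 and Oas2 and 0.0585 for Cmklr1 and Hk3). Of the 15 lymphocyte and neutrophil markers listed, 8 were tested, with a median log2 change of 2.31, and 4 of them (50%) were higher in every NT 4dpc library, against 8.97% of all genes; the list's summed level was 12.5, 13.2 and 12.4 CPM at NT 4dpc and 2.65, 4.37 and 5.92 CPM at NT 3dpc. S100a8 and S100a9, which define neutrophils, were at 0 in all 6 libraries, and Cd2 and Ms4a1 were at 0 in the NT 3dpc libraries.

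**Figure D4:**
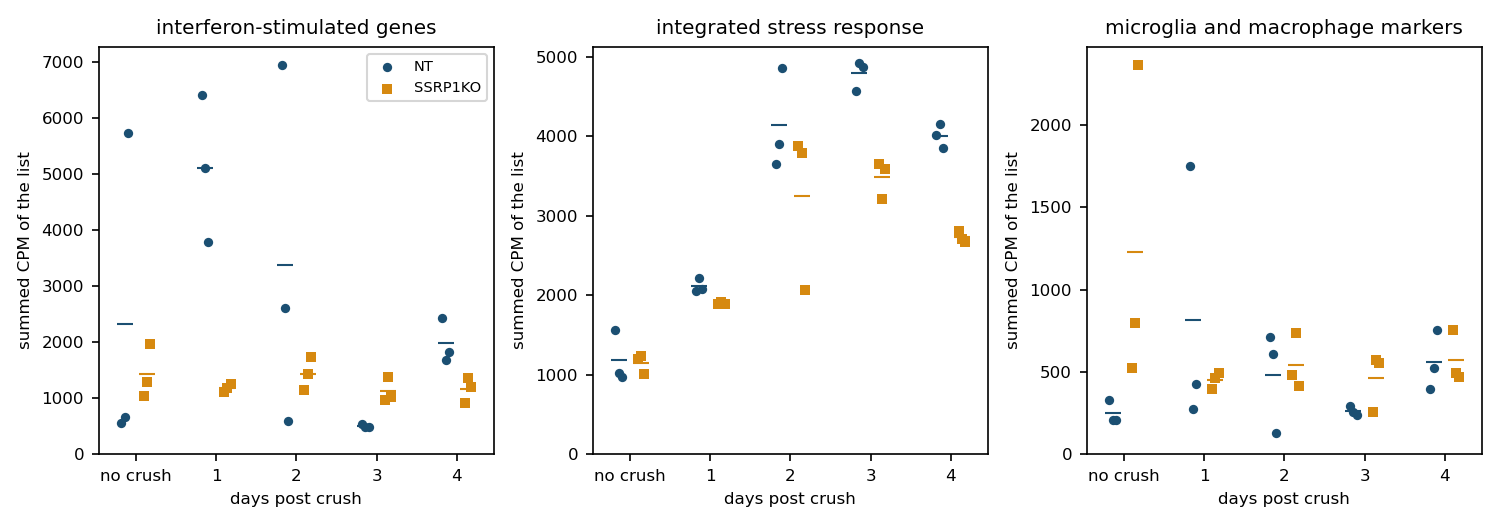
Summed CPM (y axis, from 0) of 3 gene lists in each library of the NT groups (blue circles) and the SSRP1KO groups (orange squares) by days post crush (x axis); short lines are means of 3. In NT cells the interferon-stimulated genes are lowest at day 3, the integrated stress response list is highest at day 3 and lower at day 4, and the microglia and macrophage markers are lower at day 3 than at day 4.

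The integrated stress response genes stood lower on day 4, most by a small amount. Of 34 members tested, 33 had a negative log2 change, 14 (41.2%) were lower in every NT 4dpc library than in any NT 3dpc library, against 9.01% of all genes, and 0 passed the adjusted test; the median was -0.33. Their summed level was 4020, 4155 and 3855 CPM at NT 4dpc and 4575, 4929 and 4879 CPM at NT 3dpc. In NT cells it had been 1559, 1023 and 975.5 CPM without crush, 2049, 2221 and 2073 CPM at 1dpc and 3655, 3906 and 4859 CPM at 2dpc. The day 4 libraries therefore lay below all day 3 libraries, and above all libraries without crush and at 1dpc. In SSRP1KO cells the list also stood lower at day 4, at 2804, 2705 and 2675 CPM at 4dpc and 3647, 3216 and 3596 CPM at 3dpc, with a median log2 change of -0.29.

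Single members show how the list moved. Ddit4, an inhibitor of mTORC1 that stress raises, had 9.30, 8.71 and 13.0 CPM at NT 4dpc, against 22.7, 24.5 and 25.9 CPM at NT 3dpc, with the smallest p of the list (log2 difference -1.23 ± 0.32, edgeR adjusted p = 0.104). Atf5, a transcription factor of the pathway, had 116, 140.5 and 143 CPM at NT 4dpc, against 202, 213 and 212 CPM at NT 3dpc (-0.65 ± 0.28, edgeR adjusted p = 0.415). Asns, asparagine synthetase, had 379, 424.5 and 399.5 CPM at NT 4dpc, against 467, 491 and 521 CPM at NT 3dpc (-0.30 ± 0.20, edgeR adjusted p = 0.637). In these 3 genes no day 4 library reached the lowest day 3 library. Chac1, which breaks down glutathione, overlapped, with 189.7, 169.7 and 153 CPM at NT 4dpc and 181, 207.5 and 197 CPM at NT 3dpc. Atf3, a stress regulator kept with the regeneration-associated genes here, was higher instead, with 586, 505 and 532 CPM at NT 4dpc and 417.5, 489.8 and 449 CPM at NT 3dpc.

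The promoters of Asns and Chac1 are shown as members that carry the core of the element bound by ATF4 with C/EBP factors. The core was searched as TGATGNAA on both strands in the same RefSeq windows. Of the 34 members, 30 had a promoter in the table and 9 of those (30%) held it, against 3.97% of all promoters and 4.51% of all genes. Asns (chr6:7693160-7693459, minus strand) has it beginning 23 bases before the start site, and Chac1 (chr2:119350992-119351291, plus strand) has it on the opposite strand, 193 bases before the start. Matches are in capitals.
Asns: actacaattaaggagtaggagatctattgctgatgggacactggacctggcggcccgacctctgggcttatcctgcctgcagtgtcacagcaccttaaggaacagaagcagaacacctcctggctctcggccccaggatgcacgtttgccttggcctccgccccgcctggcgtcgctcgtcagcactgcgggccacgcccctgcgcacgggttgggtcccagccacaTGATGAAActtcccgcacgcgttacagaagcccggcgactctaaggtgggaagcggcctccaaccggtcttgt
Chac1: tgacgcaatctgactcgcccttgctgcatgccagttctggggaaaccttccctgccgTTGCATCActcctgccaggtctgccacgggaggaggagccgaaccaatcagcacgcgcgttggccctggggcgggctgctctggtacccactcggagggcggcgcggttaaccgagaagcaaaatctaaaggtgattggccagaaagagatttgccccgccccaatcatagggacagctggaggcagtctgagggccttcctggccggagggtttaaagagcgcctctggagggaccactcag

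Regeneration-associated genes stood higher at day 4, to a degree that rested partly on 1 library. Of 35 tested, 15 (42.9%) were higher in every NT 4dpc library, against 8.97% of all genes, and 2 (5.71%) lower, against 9.01%, Vgf and Sprr1a; 0 passed, and the median log2 change was 0.30, or 0.20 without NT 4dpc replicate 1. Gap43, the growth cone protein, had 1631, 623 and 671 CPM at NT 4dpc, against 453, 469 and 419 CPM at NT 3dpc, close to the threshold (log2 difference 1.12 ± 0.24, edgeR adjusted p = 0.0504). Without replicate 1 its difference was 0.53 (edgeR adjusted p = 0.370). Gal, the neuropeptide galanin, had 134, 31.7 and 25.0 CPM at NT 4dpc, against 12.2, 8.17 and 11.9 CPM at NT 3dpc. Cd44, a hyaluronan receptor, had 174, 105 and 112 CPM at NT 4dpc, against 47.2, 50.2 and 47.4 CPM at NT 3dpc. Neither gene passed, at edgeR adjusted p = 0.0930 for Gal and 0.117 for Cd44. Sox11, a transcription factor of young neurons, was not led by replicate 1, with 995, 1224 and 1273 CPM at NT 4dpc and 847.5, 884 and 799.6 CPM at NT 3dpc (0.46 ± 0.18, edgeR adjusted p = 0.359). Vgf, a neuropeptide precursor, had 65.2, 102 and 97.6 CPM at NT 4dpc, against 140, 187 and 176 CPM at NT 3dpc (-0.92 ± 0.30, edgeR adjusted p = 0.202).

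The median of the cytoskeleton genes changed sign without NT 4dpc replicate 1. Of 27 neurofilament, tubulin and microtubule genes, 8 (29.6%) were higher in every NT 4dpc library, against 8.97% of all genes, and 2 (7.41%) lower, against 9.01%, with a median log2 change of 0.18 that was -0.03 without it. Tuba1a had 1245, 474 and 507 CPM at NT 4dpc and 408, 422 and 446 CPM at NT 3dpc, so that replicates 2 and 3 lay just above day 3 and replicate 1 far above it. Sdc3, a heparan sulfate proteoglycan of axons among the integrins and matrix receptors, had no such split, with 82.9, 73.6 and 78.3 CPM at NT 4dpc and 42.0, 48.2 and 45.4 CPM at NT 3dpc (0.79 ± 0.17, edgeR adjusted p = 0.0504).

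Among voltage-gated channels and neurotransmitter receptors more genes were lower than higher. Of 29 voltage-gated channels tested, 12 (41.4%) were lower in every NT 4dpc library, against 9.01% of all genes, and 0 higher, against 8.97%, with a median log2 change of -0.26 and 0 called. Kcna2, a potassium channel of the axon, had 258, 304 and 328 CPM at NT 4dpc, against 484, 409 and 413 CPM at NT 3dpc (-0.55 ± 0.15, edgeR adjusted p = 0.117). Kcna1, which pairs with it, had 163, 251 and 253 CPM at NT 4dpc, against 355, 315 and 307 CPM at NT 3dpc. Scn1a, a sodium channel that drives firing, had 239, 269.7 and 277 CPM at NT 4dpc, against 424, 351 and 318 CPM at NT 3dpc (-0.48 ± 0.15, edgeR adjusted p = 0.179). No day 4 library of these 3 genes reached a day 3 library. Of 27 neurotransmitter receptors, 11 (40.7%) were lower and 1 (3.7%) higher by the same measure, with 0 called and a median of -0.21, or -0.13 without NT 4dpc replicate 1. The nicotinic subunit Chrna6 had 8.56, 16.6 and 14.9 CPM at NT 4dpc, against 30.9, 24.4 and 31.9 CPM at NT 3dpc (-1.10 ± 0.25, edgeR adjusted p = 0.0668). Grin1, the shared subunit of NMDA receptors, had 50.2, 82.5 and 74.9 CPM at NT 4dpc, against 108, 115 and 138 CPM at NT 3dpc (-0.79 ± 0.19, edgeR adjusted p = 0.0814). Of 24 synaptic vesicle genes, 7 (29.2%) were lower and 2 (8.33%) higher, beside the same shares of all genes, with 0 called and a median of -0.12, or -0.22 without NT 4dpc replicate 1. Their summed level was 28800, 16930 and 16400 CPM at NT 4dpc and 21210, 20630 and 20670 CPM at NT 3dpc, so replicate 1 of NT 4dpc lay above every NT 3dpc library and the other two lay below. Cplx2, complexin 2, had 174, 205 and 201 CPM at NT 4dpc, against 282, 271 and 284 CPM at NT 3dpc (edgeR adjusted p = 0.117).

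Other genes just beyond the threshold were lower too. Neu1, the lysosomal sialidase, had 31.3, 68.9 and 72.5 CPM at NT 4dpc, against 112, 107 and 109.9 CPM at NT 3dpc (edgeR adjusted p = 0.0519). Vsnl1, a neuronal calcium sensor, had 419, 452 and 456 CPM at NT 4dpc, against 869.5, 779.9 and 839 CPM at NT 3dpc (edgeR adjusted p = 0.0641). The groups were far apart in both genes. Slc16a14, Tspyl4 and Pcdh10, also without overlap, had log2 differences of -1.08, -0.50 and -0.44 (edgeR adjusted p = 0.0527, 0.0585 and 0.0641).

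Among the lists that follow, Fos was the one call, and their shares are to be read beside the 8.97% of all genes that were higher and the 9.01% that were lower in every NT 4dpc library. Ganglion cell identity genes had a median log2 change of -0.01, with 3 of 23 (13%) higher and 3 (13%) lower in every NT 4dpc library, near those shares. Among 24 genes of the apoptosis machinery, 5 (20.8%) were higher and 2 (8.33%) lower, with a median of 0.07. Of the 20 immediate early genes, Fos passed and 5 in all (25%) were higher and 2 (10%) lower, with a median of 0.31. Cholesterol biosynthesis genes had a median of -0.19, with 6 of 22 (27.3%) lower and 0 higher. Among markers of other retinal cells, rod and cone genes had a median of -0.63, with 0 called, and sums of 438, 356 and 764 CPM at NT 4dpc and 780.1, 799.8 and 926.5 CPM at NT 3dpc. Müller glia and astrocyte markers summed to 1420, 1040 and 1021 CPM at NT 4dpc and 847, 694.5 and 807 CPM at NT 3dpc, of which Clu, also made by neurons, gave 1011, 555 and 476 CPM at NT 4dpc and 350.5, 314 and 362 CPM at NT 3dpc (edgeR adjusted p = 0.0527).

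**Figure D5:**
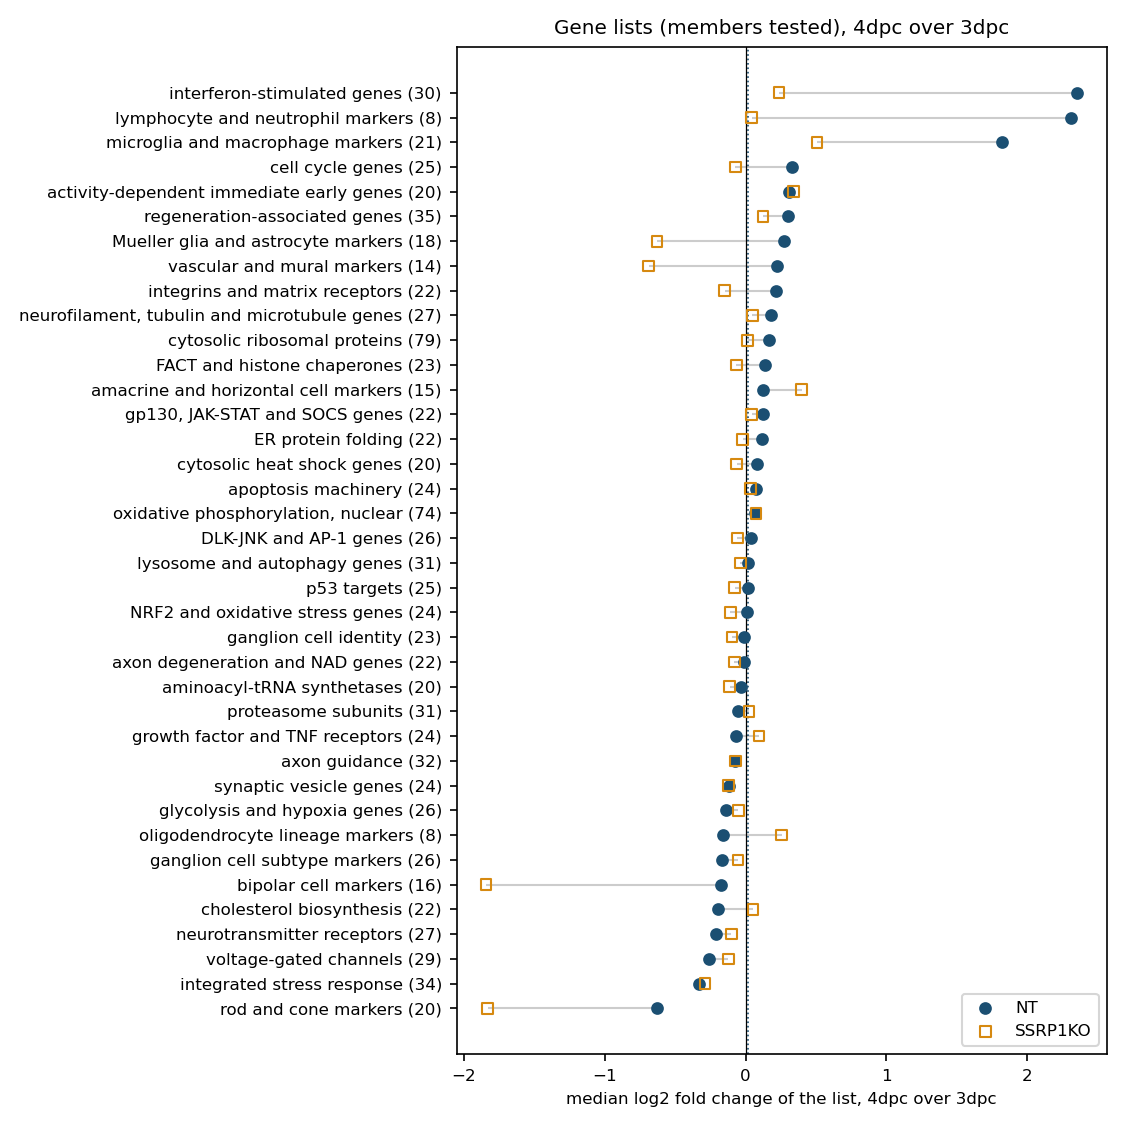
Median log2 fold change of 4dpc over 3dpc (x axis) for 38 gene lists (y axis, members tested in parentheses) in NT cells (blue circles) and SSRP1KO cells (orange squares); the dotted line is the median of all genes in NT cells. In NT cells the interferon-stimulated genes, at 2.36, and the immune marker lists lie apart. In SSRP1KO cells the interferon-stimulated genes are at 0.24, and bipolar cell markers (-1.84) and rod and cone markers (-1.83) lie farthest from 0. Most lists lie within 0.5 of 0.

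The genes that crush had moved by day 2 were followed into the last step, since no library of that contrast enters day 4 against day 3. Of 16621 genes, 1574 (9.47%) were higher and 1554 (9.35%) lower at NT 2dpc than without crush. Of those that had fallen, 336 (21.6%) were lower in every NT 4dpc library than at NT 3dpc, against 9.01% of all genes, and 82 (5.28%) higher, against 8.97%. Of these 1554 genes 4 were called lower and 2 higher. Over all 16621 genes 8 (0.0481%) were called lower and 10 (0.0602%) higher. The median log2 change of the genes that had fallen was -0.12, or -0.0499 with the sex score. Of those that had risen, 215 (13.7%) were higher and 165 (10.5%) lower, beside the same shares of all genes, and 0 were called. Their median was 0.07, but -0.0101 with the sex score and 0 without NT 4dpc replicate 1.

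The same step in SSRP1KO cells shares no library with the NT step. There 0 of 16621 genes passed (0%) by edgeR, with 752 (4.52%) at an unadjusted p under 0.05 and 25 by DESeq2. The NT and SSRP1KO steps side by side were 1.10 and 0.06 on the log2 scale for Chl1, 1.00 and 0.03 for Marcks, 2.23 and 0.48 for Pappa2, and -1.27 and -0.35 for Nptx1. Fos stood at 1.84 in NT cells and 1.00 in SSRP1KO cells, and Gpr123 at -0.93 in NT cells and -0.54 in SSRP1KO cells. When the difference between the steps was tested itself, 0 of 16621 genes passed by edgeR, with 819 (4.93%) at an unadjusted p under 0.05 and 4 by DESeq2. For Chl1 the difference was 1.03 ± 0.23 (edgeR adjusted p = 0.534), for Nptx1 -0.92 ± 0.27 and for Mx2 3.22 ± 1.04 (both edgeR adjusted p = 0.910). SSRP1KO 3dpc replicate 2 had 4702 CPM of rod and cone markers, against 865 and 728 CPM in the other SSRP1KO 3dpc libraries, and without it 0 genes passed as well. The count was 19 without SSRP1KO 3dpc replicate 1 and 13 without SSRP1KO 3dpc replicate 3.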

How the data were processed

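RNA was counted in 30 libraries of sorted mouse retinal ganglion cells, in 10 groups of 3. The file deposited by the authors holds raw read counts for each gene symbol, 1 column per library. GRCm38 (mm10), bcl2fastq 2.17, STAR and HTSeq appear in the submitters' processing notes, with no roles. Which annotation was used, whether strand was, and how multiply mapped reads were handled is not given in the sources used here, so reads of overlapping and antisense genes cannot be told apart. A second deposited table, of repeat intervals, was not used here.

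The 27 of 24060 symbols that read as calendar dates were dropped, for 24033 in use (at most 0.275% of a library's counts). In R 4.3.3 with edgeR 4.0.16, TMM scaling and filterByExpr left 16621 genes for the quasi-likelihood model, fitted to all 30 libraries with a coefficient for each group and 20 residual degrees of freedom. Two-sided p-values were adjusted by Benjamini-Hochberg across all genes, with 0.05 as threshold. CPM are counts over the TMM-scaled library size. With 3 libraries against 3, an exact permutation test of 1 gene could not pass the threshold, and none was run. Coordinates come from GENCODE M21, in which 22776 of 24060 symbols (94.7%) were found, and promoters from RefSeq. The steps were tested on simulated counts. Alternatives were DESeq2 1.42.0, its size factors, no filter, fewer libraries, a replicate block, a sex score and leaving out single libraries. Figures were drawn with matplotlib 3.10.9 in Python 3.11.15.

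Genes were named when they passed the test, averaged at least 5 CPM in the higher group and separated all libraries of both groups, up to 15 each way, passing over predicted gene models; as fewer than 5 decreases met this, genes with the smallest p filled that direction up to 10 as values only. From each list the member with the smallest p was taken, and other members named as examples were chosen with their values seen. The comparison and all lists were chosen with earlier results of these data known.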

Additional observations from a re-analysis of the deposited data

How the results depend on the processing

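The number of genes that passed for NT 4dpc against NT 3dpc, 18, was 42 without the filter on low counts, 252 with DESeq2, 96 with only the 6 libraries, 2 with only the 15 NT libraries, 6 with the sex score and 124 without the libraries that stand apart (SSRP1KO 2dpc replicates 4 and 5 and SSRP1KO no crush replicate 3). Leaving out 1 library at a time gave 2 to 24. Of the 18 genes, 8 of 17 tested still passed with only the 6 libraries, 5 of 17 with the replicate block in them, 2 with only the 15 NT libraries and 3 with the sex score. All 18 kept their direction in every alternative that could test them. The replicate numbers did not pair the libraries, with correlations of same-numbered deviations of 1e-04, 0.0193 and 0.006; with the replicate block in the 6 libraries 66 genes passed, and with it in all libraries 22.

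For SSRP1KO 4dpc against SSRP1KO 3dpc the count was 25 with DESeq2, 1 with only the 6 libraries, 2 without the libraries that stand apart and 0 to 19 without single libraries. For the difference of the steps it was 4 with DESeq2, and 5 with the 12 libraries alone, with or without the replicate block. For NT 3dpc against NT 2dpc it was 1533 with DESeq2, 389 with only the 6 libraries, 80 with the replicate block in those 6 libraries (1205 with it in all libraries), 1597 without the libraries that stand apart and 372 to 934 without single libraries. For NT 2dpc against NT 1dpc it was 547 with only the 6 libraries, 284 with the replicate block in those 6 (1276 with it in all libraries), 1637 without the libraries that stand apart and 514 to 1185 without single libraries. The lymphocyte and neutrophil list had a higher median than the interferon-stimulated genes with DESeq2 (2.39 and 2.37), with only the 6 libraries (2.66 and 2.34) and without NT 4dpc replicate 1 (2.64 and 2.43). The sex score moved the medians of the genes up and down at NT 2dpc to -0.0101 and -0.0499, and single libraries moved them over 0 to 0.10 and -0.16 to -0.10. Hsp90aa1 and Psmd12 turned direction without NT 4dpc replicate 1, to -0.0153 and -0.0494, and passed in no alternative (over single libraries they ranged up to 0.462 and 0.528). In all these cases the cause was not tested. The depth of NT 4dpc replicate 1 limits what low-count genes can show.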
